A study of Mus musculus with 20 samples.

Results

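UBE3A passes ubiquitin to its substrates through a HECT domain, in which a catalytic cysteine accepts ubiquitin from an E2 enzyme before handing it on. Other ligases share this domain. They include the UBE3 paralogs, the NEDD4 family, whose C2 and WW domains bring membrane and signaling proteins to the catalytic domain, and very large ligases such as HUWE1 and HERC1. Several are known for work in neurons, where they limit channels and receptors at the membrane or set the growth of neurites. The genes followed here were *Ube3b*, *Ube3c*, *Nedd4*, *Nedd4l*, *Itch*, *Smurf1*, *Smurf2*, *Huwe1* and *Herc1*, selected by symbol as HECT ligases other than *Ube3a* and *Herc2*. They were 9 of the 47729 genes counted, and 9 of the 27 mouse HECT genes considered. The question was whether the transcripts of these relatives differed when *Ube3a* was overexpressed, and where in the brain each was higher.

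Messenger RNA of hippocampus and cortex was sequenced from 5 WT and 5 Ube3aOE pups at P7, all C57Bl/6J, which gave 20 libraries of 10 mice. Ube3aOE is the label of mice that carry a bacterial artificial chromosome with mouse *Ube3a* and its flanking sequence, and the study describes these animals as *Ube3a*+2, with 2 additional copies. The transgene is read from its own copy of the flanking sequence, not from the endogenous locus, and the study centered its later characterization on line E, without naming the line again for the sequenced pups. Mice 1 to 5 were WT and mice 6 to 10 were Ube3aOE, both labelled sexes were present in each genotype, and the 2 libraries of 1 number came from 1 mouse. The deposited values are whole read counts per gene. They are given below as CPM, read counts scaled by the TMM-adjusted library total, and, for comparisons between genes, as CPM per kb of exon.

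Between 14191093 and 16752326 reads per library were counted on genes. The tissue labels were matched by their markers: 6 of 6 hippocampal markers were higher in hippocampus, and 4 of 6 neocortical markers were lower there (adjusted P under 0.05, edgeR). Hippocampal libraries of 4 mice held markers of neighboring tissue. Choroid plexus markers summed to 1955 CPM in Ube3aOE mouse 7, against a group median of 21.7, and thalamic markers summed to 1132 CPM in Ube3aOE mouse 10 and to 478 CPM in WT mouse 4, against group medians of 198 and 130.3. Striatal markers summed to 516 CPM in Ube3aOE mouse 9, against 52.2. The hippocampal library of WT mouse 2 had the most neocortical markers of its group (309 CPM against a median of 147). The cortex library of WT mouse 2 had the lowest share of reads on genes, 69.7%. In 2 WT mice (3 and 5) the counts of sex-linked genes did not match the labelled sex. Values without mice 4, 7, 9 and 10, or without mouse 2, stand beside the results they moved most, and no fit left out mice 3 and 5 together. In bulk tissue fewer cells of a type and less RNA per cell cannot be told apart.

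All 9 are protein-coding genes (GRCm38). *Ube3b* (chr5:114380607-114421169), *Ube3c* (chr5:29569242-29676092) and *Smurf1* (chr5:144876495-144965847) lie on chromosome 5, *Nedd4* (chr9:72662346-72749852) and *Herc1* (chr9:66350450-66508775) on chromosome 9, *Itch* on chromosome 2, *Smurf2* on chromosome 11, *Nedd4l* on chromosome 18 and *Huwe1* on X. None lies on chromosome 7, which holds *Ube3a*. All 9 ligases were detected in every library and passed the filter on low counts, from 406 reads (*Itch*) upward. Per kb of exon, *Nedd4* was the most abundant, and *Herc1* and *Itch* were the least. In WT hippocampus, *Nedd4* reached 52.9 ± 3.28 CPM per kb (SD, n = 5), *Ube3b* 26.0 ± 0.870, *Ube3c* 19.7 ± 0.446 and *Smurf1* 13.8 ± 0.566. The ranges of these 4 genes over the 5 libraries did not overlap each other. *Huwe1* followed at 7.94 ± 2.22 CPM per kb and *Nedd4l* at 7.79 ± 0.376, and these neighbors overlapped. *Smurf2* stood at 6.22 ± 0.371, *Itch* at 3.66 ± 0.321 and *Herc1* at 3.50 ± 0.865, and the last 2 overlapped. Averaged over the 20 libraries *Nedd4* ranked first and *Itch* last also with the longest transcript as the length, but *Ube3b* and *Ube3c* then exchanged ranks 2 and 3, so that the order of these paralogs rests on the gene model.

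**Figure D1:**
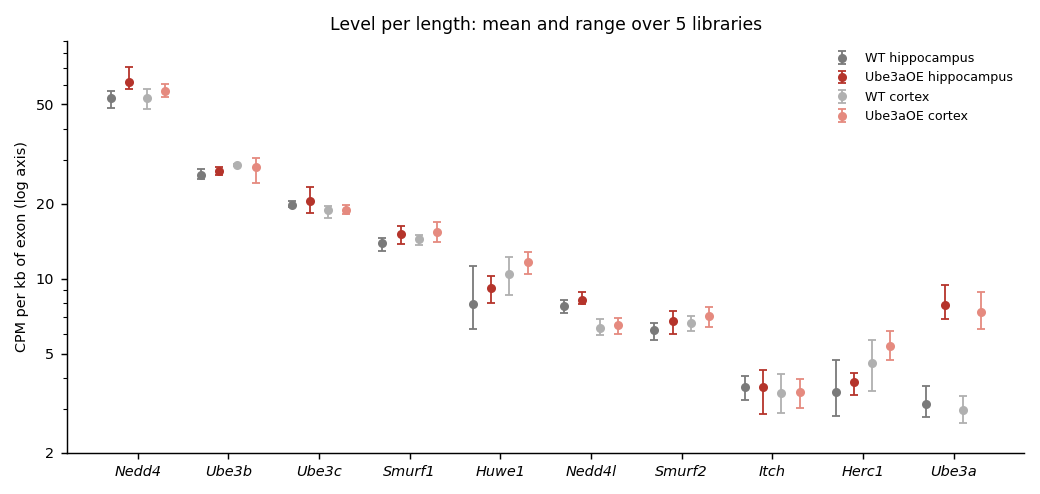
Level of each ligase and of *Ube3a*, in CPM per kb of exon on a log axis, as the mean (point) and range (bar) of the 5 libraries of each group. *Nedd4* lies above the other ligases in each group, and *Ube3a* is the gene whose Ube3aOE bars stand apart from the WT bars in both tissues.

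*Ube3a* itself was a minor part of this family by transcript. In WT hippocampus it stood at 3.14 ± 0.398 CPM per kb (SD, n = 5), 1.14% ± 0.0632 of the sum of the 27 HECT genes, and in Ube3aOE hippocampus at 7.86 ± 1.21 CPM per kb, 2.62% ± 0.343 of that sum. In cortex the share was 1.01% ± 0.101 in WT and 2.38% ± 0.395 in Ube3aOE mice. The 9 ligases together summed to 142 ± 6.07 CPM per kb in WT hippocampus and to 156 ± 7.73 in Ube3aOE hippocampus, and their ranges overlapped (134 to 150.3 and 149 to 168). In cortex the sums were 146 ± 6.93 and 153 ± 5.34 CPM per kb, again with overlap.

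The extra *Ube3a* was present in every Ube3aOE library. *Ube3a* lay between 57.1 and 76.8 CPM in WT hippocampus and between 142 and 195 CPM in Ube3aOE hippocampus, and between 54.4 and 70.0 CPM in WT cortex and 129.6 and 182 CPM in Ube3aOE cortex. The genotypes did not overlap in either tissue. *Ube3a* was 2.50-fold higher in hippocampus (log2 fold change 1.32 ± 0.11 SE, adjusted P = 0.000441, edgeR quasi-likelihood test) and 2.49-fold higher in cortex (1.31 ± 0.11, adjusted P = 0.000822).

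None of the 9 relatives passed the test between genotypes. In hippocampus 0 of 9 had an adjusted P under 0.05 by edgeR, as against 1 of 15220 genes tested (0.00657%), which was *Ube3a*. In cortex 0 of 9 passed, as against 1 of 14947 genes (0.00669%). At an unadjusted P under 0.05, 1 of 9 (*Nedd4*) was found in hippocampus and 0 of 9 in cortex, where 7.21% and 4.44% of all genes were. DESeq2 and limma voom also called 0 of 9 in each tissue. Of all genes tested, each called 1 in hippocampus, and they called 4 and 1 in cortex. All 9 log2 fold changes were above 0 in hippocampus and 7 of 9 were in cortex, as were 50.7% and 51.4% of all genes. The median of the 9 was 0.11 in hippocampus and 0.09 in cortex, beside 0.0023 and 0.0033 over all genes tested. With 1 mouse left out, this median ranged from 0.063 (without mouse 4) to 0.12 (without mouse 6) in hippocampus. In cortex the range was 0.044 (without mouse 2) to 0.10 (without mouse 5). The 95% interval lay inside a log2 change of 0.5 for 8 of 9 in hippocampus (69.9% of all genes), with *Huwe1* as the exception, and for 9 of 9 in cortex (73.8%).

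**Figure D2:**
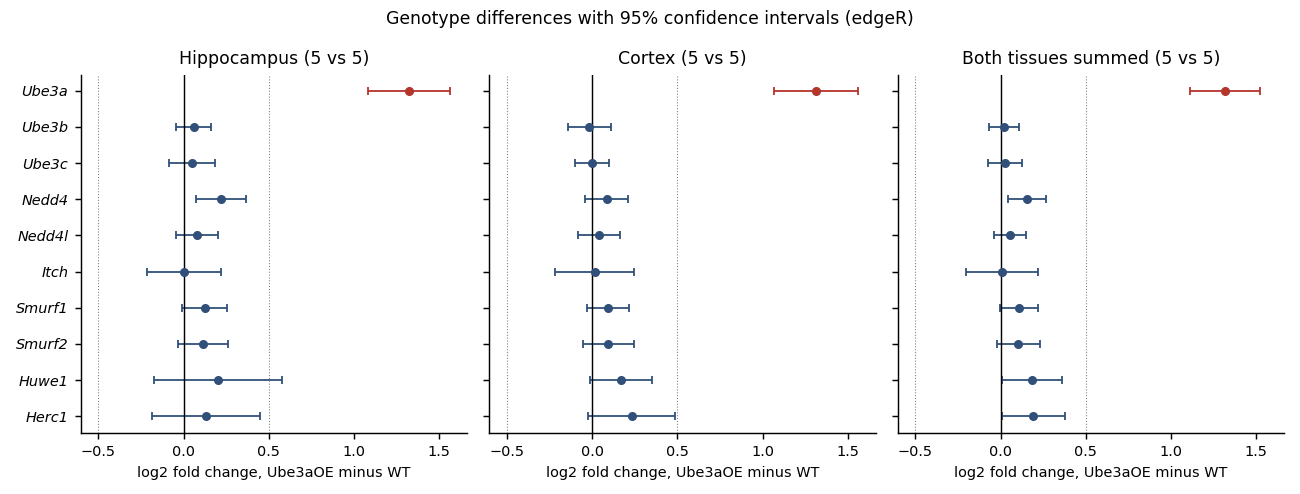
Difference between Ube3aOE and WT mice on the log2 scale (x axis) for *Ube3a* and the 9 ligases (y axis), with 95% confidence intervals, in hippocampus, in cortex and in the summed counts of both tissues of each mouse. Dotted lines mark 0.5 in either direction, and every ligase lies far left of *Ube3a*, whose values are 1.32, 1.31 and 1.32.

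The UBE3 paralogs did not differ beyond the spread between mice. *Ube3b*, a calmodulin-binding ligase whose loss causes a syndrome of intellectual disability in humans, lay between 133 and 145 CPM in WT hippocampus and between 137 and 149 CPM in Ube3aOE hippocampus. The groups overlapped, and the log2 fold change was 0.06 ± 0.05 SE (95% confidence interval -0.05 to 0.16). In cortex the 5 WT libraries fell within 149.6 and 153 CPM while the Ube3aOE libraries spread on both sides of them, from 128 to 162 CPM (log2 fold change -0.02, -0.14 to 0.11). *Ube3c*, which works on the proteasome and lengthens ubiquitin chains there, ranged from 185 to 195 CPM in WT and from 175 to 223 CPM in Ube3aOE hippocampus (0.05, -0.08 to 0.18). Its highest Ube3aOE library was that of mouse 10. In cortex *Ube3c* ranged from 168 to 187 CPM in WT and from 173 to 189 CPM in Ube3aOE mice (-0.00054, -0.10 to 0.10). For both paralogs in both tissues the interval lay inside a change of 0.25 on the log2 scale. This was not particular to them, as other ligases also had such an interval in each tissue. In the summed counts of both tissues 6 of 9 ligases had such an interval, beside 45.0% of all genes.

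*Nedd4*, the founding member of its family, which acts on growth factor receptors and AMPA receptors, came closest to a difference. In hippocampus the 5 WT libraries held 605, 618, 528, 588 and 562 CPM (mice 1 to 5). The 5 Ube3aOE libraries held 658, 635, 631, 679 and 777 CPM (mice 6 to 10). Every Ube3aOE library was thus above every WT library, an order that 0.493% of all genes tested also showed, and the highest value belonged to mouse 10, whose library held thalamic markers. The log2 fold change was 0.22 ± 0.07 SE (0.07 to 0.36, 1.16-fold), with an unadjusted P = 0.00709 and an adjusted P = 0.668 by edgeR, so that it did not pass. Without mouse 10 the log2 fold change was 0.16 (adjusted P = 0.951), and without mice 4, 7, 9 and 10 it was 0.15 (adjusted P = 0.999). Without mouse 8 it was 0.25, and the smallest adjusted P with 1 mouse left out was 0.295 by edgeR. Over 8 alternatives the adjusted P ranged from 0.394 to 0.999. In cortex the 5 WT libraries held 635, 524, 559.8, 580.2 and 619.8 CPM and the 5 Ube3aOE libraries 613, 585, 615, 616 and 663 CPM. These groups overlapped, with a log2 fold change of 0.09 ± 0.06 SE (adjusted P = 0.960, edgeR).

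Its closest paralog, *Nedd4l*, which removes sodium channels from the membrane, showed less. The WT hippocampal libraries held 145, 140.0, 133, 128 and 142 CPM and the Ube3aOE libraries 156, 142, 149.8, 139.6 and 139 CPM. In cortex the WT libraries held 122, 105, 111, 112 and 112 CPM and the Ube3aOE libraries 106, 109, 123, 119 and 119 CPM. The genotypes overlapped in both tissues, with log2 fold changes of 0.08 ± 0.06 SE in hippocampus and 0.04 ± 0.06 in cortex. *Itch*, a ligase best known from T cells, where it acts on JunB, was level, with log2 fold changes of 0.00014 (-0.22 to 0.22) and 0.02 (-0.22 to 0.25). The SMURF ligases act on the SMAD proteins of BMP and TGF-β signaling and on RhoA. *Smurf1* had log2 fold changes of 0.12 (-0.0085 to 0.25) and 0.09 (-0.03 to 0.22) in hippocampus and cortex. *Smurf2* had 0.11 (-0.03 to 0.26) and 0.09 (-0.06 to 0.24). The genotypes of these 3 genes overlapped in both tissues.

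The widest intervals belonged to the very large ligases. *Huwe1*, an X-linked gene whose product targets N-Myc in neural progenitors, held 216, 265, 153, 148 and 151 CPM in WT hippocampus and 226, 188, 239.6, 234 and 188 CPM in Ube3aOE hippocampus. WT mice 1 and 2 were inside or above the Ube3aOE range and WT mice 3, 4 and 5 below it. In cortex the WT libraries held 286, 203, 239.6, 234 and 260.4 CPM and the Ube3aOE libraries 261, 246, 283, 282 and 299 CPM. *Herc1*, whose mutation causes loss of Purkinje cells in the tambaleante mouse, followed the same mice. It held 112, 129.8, 81.2, 77.1 and 79.5 CPM in WT and 110.4, 99.7, 114, 109 and 94.0 CPM in Ube3aOE hippocampus. In cortex it held 155, 97.0, 128, 114 and 136 CPM in WT and 135, 129, 154, 169 and 153 CPM in Ube3aOE mice. For both genes the genotypes overlapped in both tissues. The log2 fold change of *Huwe1* was 0.20 ± 0.17 SE in hippocampus (-0.18 to 0.58, adjusted P = 0.754, edgeR) and 0.17 ± 0.08 in cortex (-0.01 to 0.35, adjusted P = 0.960). That of *Herc1* was 0.13 ± 0.14 in hippocampus (-0.19 to 0.45, adjusted P = 0.809) and 0.23 ± 0.12 in cortex (-0.02 to 0.49, adjusted P = 0.960). These estimates rested on few mice. In hippocampus they were 0.37 and 0.27 without mouse 2, 0.13 and 0.063 without mouse 4, and 0.24 and 0.15 without mice 4, 7, 9 and 10, for *Huwe1* and *Herc1* respectively. In cortex they were 0.10 and 0.15 without mouse 2, and 0.23 and 0.32 without mouse 1. With 1 mouse left out the smallest adjusted P of either gene by edgeR was 0.468 in hippocampus and 0.665 in cortex.

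**Figure D3:**
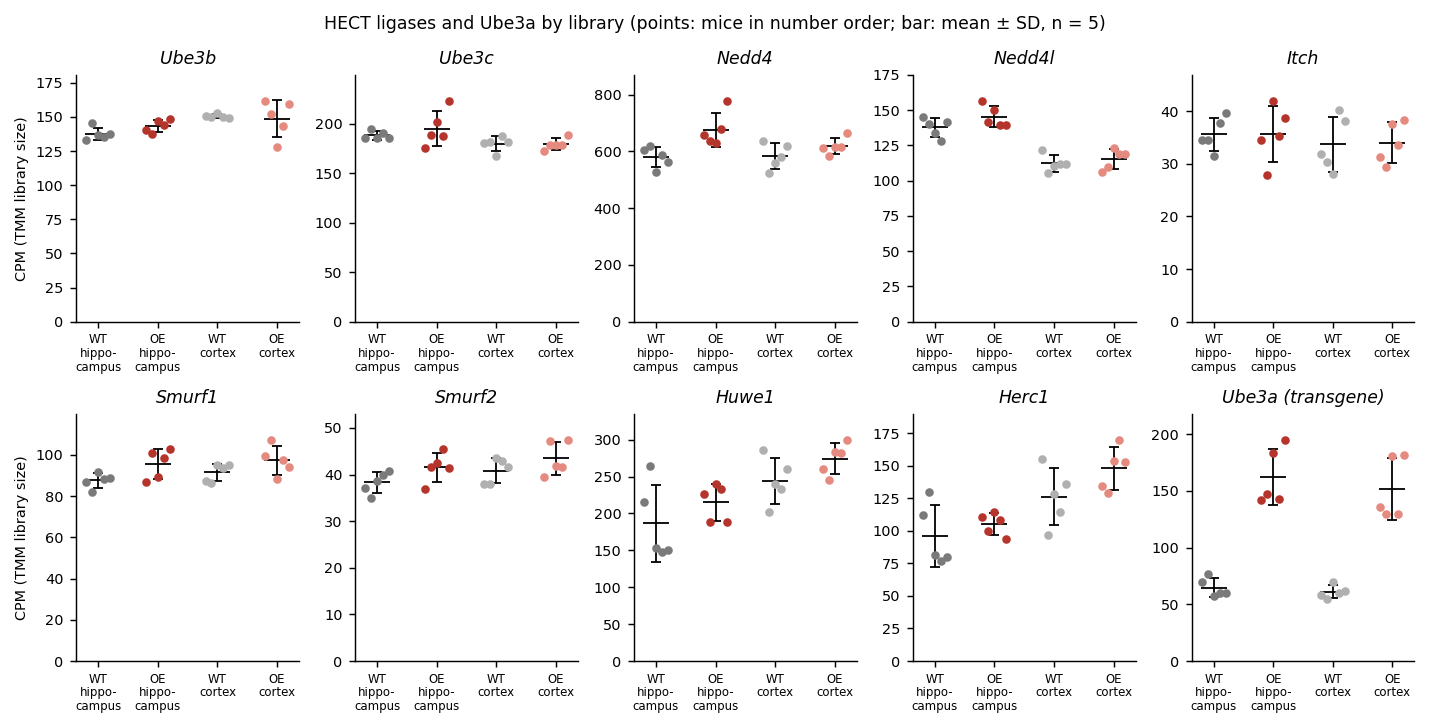
CPM (y axis, from 0) of the 9 ligases and of *Ube3a* in each of the 20 libraries (points, mice in number order), by group, with the mean and SD of 5 mice. *Ube3a* is clearly split by genotype, *Nedd4* is split without overlap in hippocampus alone, and *Huwe1* and *Herc1* spread most within WT hippocampus, where mice 1 and 2 lie above mice 3, 4 and 5.

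Summing the hippocampal and cortical counts of each mouse gave intervals narrower than in either tissue for 8 of 9 ligases, all but *Ube3c*, whose interval in cortex was narrower. By edgeR 0 of 9 ligases passed, as against 0.00612% of 16334 genes, and the smallest adjusted P among them was 0.791. At an unadjusted P under 0.05 there were 3 of 9 (6.01% of all genes), namely *Nedd4* at 0.15 ± 0.05 on the log2 scale, *Huwe1* at 0.19 ± 0.08 and *Herc1* at 0.19 ± 0.09. All 9 estimates were above 0, as were 51.2% of all genes. All 9 intervals lay inside a log2 change of 0.5, as did 75.6% of all intervals, and 6 of 9 lay inside 0.25, as did 45.0%. The highest upper bound was 1.30-fold, for *Herc1*, and the lowest lower bound was 0.869-fold, for *Itch*. *Ube3a* in the same fit was 2.49-fold higher (2.16 to 2.87). The estimate for *Nedd4*, 1.11-fold, could not be told from no difference after adjustment. The genotype difference was not shown to differ between the tissues for any ligase: 0 of 9 passed the interaction test by edgeR, as did 0 of 15661 genes (0.0%), with 0 of 9 at an unadjusted P under 0.05 as against 3.77% of all genes, and 0 by DESeq2. The largest interaction estimate was that of *Nedd4*, 0.14 ± 0.09 (adjusted P = 0.997).

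All 9 ligases have exon lengths (5.294 to 27.464 kb) above the median of the genes tested (4.327 kb). The slope of log2 CPM on the doubling of exon length, relative to the mean library, averaged 0.0235 ± 0.0271 (SD, n = 5) in Ube3aOE and -0.00934 ± 0.0266 in WT hippocampus, and 0.00156 ± 0.0128 in Ube3aOE and -0.0157 ± 0.0329 in WT cortex. The ranges of the genotypes overlapped in both tissues, and the lowest slope was that of the cortex library of WT mouse 2. After each library's trend on length and GC content had been removed, the median of the 9 ligases was 0.03 in hippocampus, 0.04 in cortex and 0.07 in the sums, where 5 of 9 were above 0. The correction also lowered the median of all genes, to -0.028, -0.011 and -0.022, with 41.4%, 45.4% and 41.5% of genes above 0. *Nedd4* in hippocampus was then 0.13 (adjusted P = 0.684, edgeR), *Huwe1* 0.10 and *Herc1* 0.03.

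Between the tissues, in contrast, single ligases differed in either direction. By edgeR over the 20 libraries, 5 of 9 passed an adjusted P of 0.05, 2 higher and 3 lower in hippocampus, as against 50.9% of 15661 genes (25.3% higher and 25.6% lower), so that the count was near the background of this contrast. Markers of choroid plexus (4 of the 5 tested) and of thalamus (4 of the 4 tested) were also higher in hippocampus. Their part in these values was not tested beyond leaving out the 4 mice named above. *Nedd4l* was higher in hippocampus in 10 of 10 mice, and its libraries did not overlap between the tissues (128 to 156 CPM in hippocampus, 105 to 123 CPM in cortex). Of all genes, 9.27% were as fully separated, and 28.2% had the same direction in all 10 mice. The log2 difference of *Nedd4l* was 0.32 ± 0.04 SE (0.24 to 0.39, 1.24-fold, adjusted P = 8.4e-07). It was between 0.32 and 0.37 under the 8 alternatives, and was 0.37 without mice 4, 7, 9 and 10 (adjusted P = 0.000293).

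*Huwe1* and *Herc1* were lower in hippocampus, by 0.37 ± 0.10 SE on the log2 scale for *Huwe1* (0.774-fold, adjusted P = 0.00412, edgeR) and by 0.44 ± 0.10 for *Herc1* (0.736-fold, adjusted P = 0.000933). Each was lower in 9 of 10 mice, and the exception for both was WT mouse 2, whose hippocampus held more than its cortex. Its hippocampal library was also the one with the most neocortical markers in its group, and its cortex library the one with the lowest share of reads on genes, and their part in this exception was not tested. Across libraries the values overlapped, from 148 to 265 CPM in hippocampus and from 203 to 299 CPM in cortex for *Huwe1*, and from 77.1 to 129.8 and from 97.0 to 169 CPM for *Herc1*. Without mouse 2 the differences were -0.47 and -0.54. Without mice 4, 7, 9 and 10, whose hippocampal libraries held the markers of neighboring tissue, they were -0.27 for *Huwe1* (adjusted P = 0.179) and -0.36 for *Herc1* (adjusted P = 0.0885), so that both calls were lost with 6 mice. With the length and GC correction both remained, at -0.30 (adjusted P = 0.000344) and -0.33 (adjusted P = 3.02e-05). *Herc2*, another very large ligase, which shares chromosome 7 with *Ube3a*, was lower by 0.47 ± 0.12 (adjusted P = 0.0039).

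The UBE3 paralogs differed between the tissues by small amounts in opposite directions. *Ube3b* was lower in hippocampus by 0.09 ± 0.04 SE (0.938-fold, adjusted P = 0.0463, edgeR) and lower in 8 of 10 mice. *Ube3c* was higher by 0.09 ± 0.04 (1.07-fold, adjusted P = 0.0464) and higher in 10 of 10 mice, although the tissues overlapped. With the mouse as a block the adjusted P of *Ube3b* was 0.057 and 4 of 9 ligases passed, and with the length and GC correction *Ube3c* was at 0.04 (adjusted P = 0.397). Both paralogs lost their call without mice 4, 7, 9 and 10 (adjusted P = 0.447 and 0.180). With 1 mouse left out the call of *Ube3b* was lost in 9 of 10 fits, all but that without mouse 8, and the call of *Ube3c* in 7 of 10, and over the 8 alternatives the adjusted P ranged from 0.00344 to 0.447 for *Ube3b* and from 0.0185 to 0.397 for *Ube3c*. *Smurf1* and *Smurf2* did not pass, at -0.04 (-0.13 to 0.04) and -0.08 (-0.18 to 0.02), but did with the length and GC correction, at -0.11 (adjusted P = 0.0175) and -0.17 (adjusted P = 0.00665), a correction that moved the median of all genes from -0.0053 to -0.055, and their adjusted P reached 0.649 and 0.554 under other alternatives. *Nedd4* was at 0.06 (-0.03 to 0.15) and *Itch* at 0.07 (-0.09 to 0.23), with no call under any alternative.

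**Figure D4:**
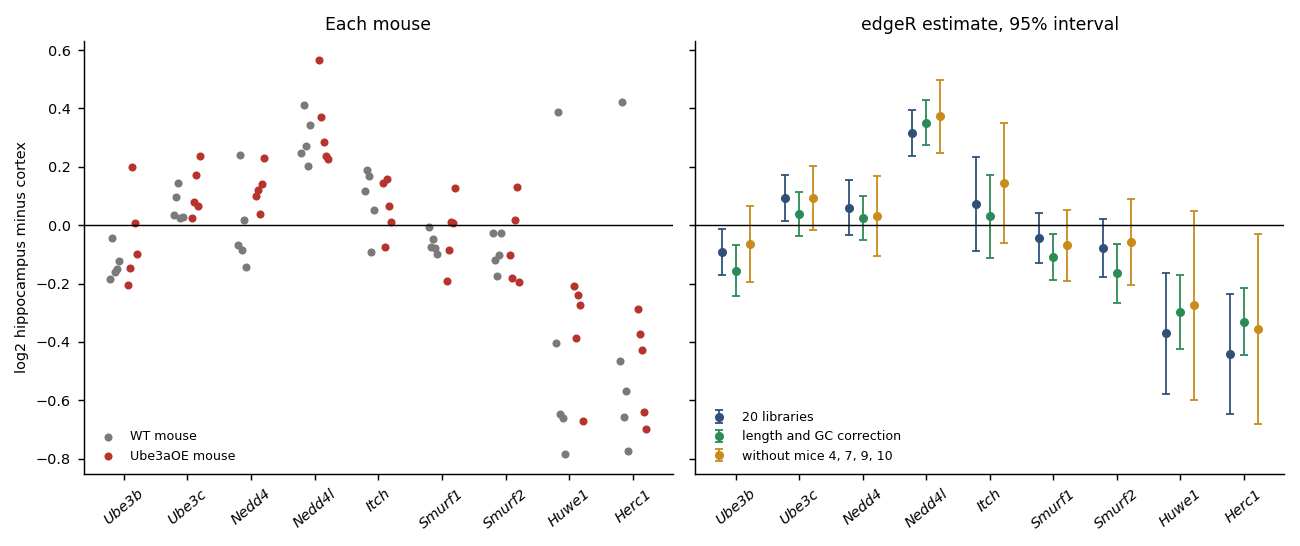
Log2 difference between hippocampus and cortex for each ligase, in each mouse from its 2 libraries (left) and as the edgeR estimate with its 95% interval (right) over the 20 libraries, after the length and GC correction, and without mice 4, 7, 9 and 10. *Nedd4l* lies above 0 in every mouse and under each setting, while *Huwe1* and *Herc1* lie below 0 in 9 of 10 mice and have the widest intervals.

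*Huwe1* and *Herc1* varied together. Once the mean of each group was taken out, their log2 CPM correlated at r = 0.949 over the 20 libraries, which come from 10 mice and share depth and length trend, so that this is a description. The next highest pair was *Nedd4l* with *Herc1* (r = 0.673), and the lowest was *Nedd4l* with *Smurf1* (r = -0.623). Among all 15661 genes, the one most like *Huwe1* over the 20 libraries was *Ank3* (r = 0.989), which encodes the ankyrin of the axon initial segment, and the one most like *Herc1* was *Birc6* (r = 0.971), a very large ubiquitin-conjugating enzyme. With *Herc2* the correlations were 0.967 and 0.969. For *Nedd4l* the nearest gene was *Dock4* (r = 0.959, a value that holds the difference between the tissues, with 0.690 within hippocampus and 0.838 within cortex), and for *Nedd4* it was *Dscam* (r = 0.879). Those nearest to *Ube3b*, *Ube3c*, *Itch*, *Smurf1* and *Smurf2* were *Ctif* (0.893), *Rab6b* (0.876), *Papola* (0.893), *Smg5* (0.830) and *Zc3hav1l* (0.864). Within hippocampus and within cortex, *Nedd4* with *Dscam* stood at 0.923 and 0.744, and *Ube3c* with *Rab6b* at 0.913 and 0.642. Without mouse 10 the values over both tissues were 0.782 for *Nedd4* with *Dscam* and 0.717 for *Ube3c* with *Rab6b*.

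**Figure D5:**
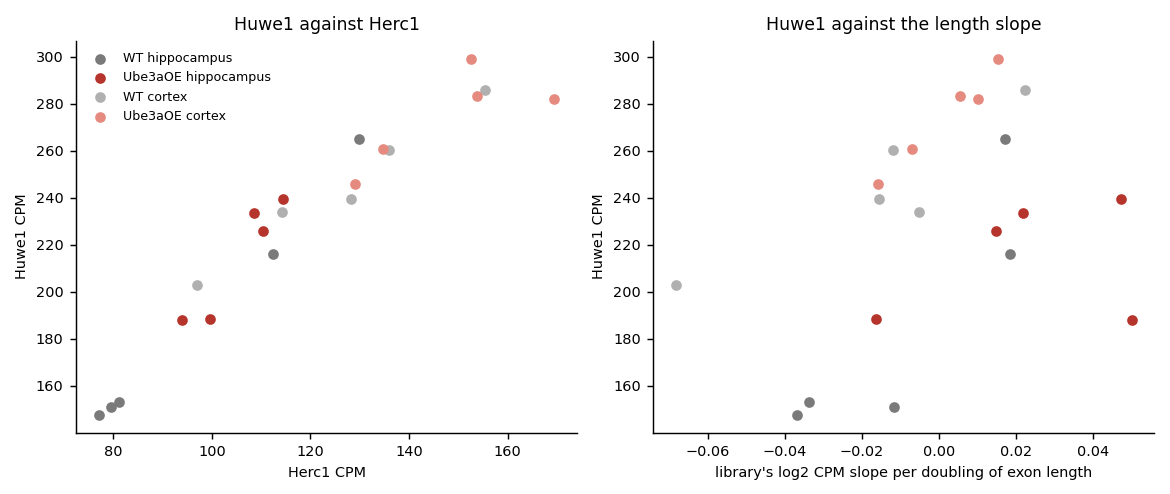
*Huwe1* CPM of the 20 libraries against *Herc1* CPM (left) and against the library's slope of log2 CPM per doubling of exon length (right), colored by group. The points fall along a line on the left, from WT hippocampus of mice 3, 4 and 5 at the bottom to cortex at the top, and scatter more on the right.

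None of the other HECT ligases or of the listed proteins that work with them passed between genotypes either. Of 16 further HECT genes, 0 passed in hippocampus or in cortex by edgeR. Above 0 were 12 of 16 and 11 of 16, beside 50.7% and 51.4% of all genes, with medians of 0.07 and 0.05. At an unadjusted P under 0.05 there were 2 of 16 in hippocampus and 0 of 16 in cortex, beside 7.21% and 4.44% of all genes. Among those with the smallest P values were *Wwp2* (0.15 ± 0.05 SE) and *Trip12* (0.20 ± 0.08) in hippocampus, both with an adjusted P = 0.668, and *Hectd4* (0.16 ± 0.09) in cortex. Of 13 partners, which were the NEDD4-family adaptors and the E1 and E2 enzymes that act with HECT ligases, 0 passed in either tissue, with 5 of 13 and 3 of 13 above 0 and medians of -0.03 and -0.02. The smallest P values were those of *Ube2d1* (-0.09 ± 0.07) and *Smad7* (0.14 ± 0.16) in hippocampus and of *Arrdc1* (-0.14 ± 0.08) and *Ube2d3* (-0.10 ± 0.08) in cortex. Between the tissues, 4 of 16 HECT genes passed and all 4 were lower in hippocampus, where 50.9% of all genes passed and 25.6% were lower, the largest differences being those of *Hectd4* (listed as *Gm15800*, -0.55 ± 0.11), *Hecw2* (-0.54 ± 0.09) and *Hecw1* (-0.54 ± 0.08). Of the partners, 7 of 13 passed, a count near that 50.9%, and all 7 were lower in hippocampus, beside 25.6% of all genes. They were led by *Arrdc1* (-0.41 ± 0.05), an arrestin-domain adaptor of NEDD4 ligases. *Smad7* (-0.29 ± 0.12), which brings SMURF ligases to TGF-β receptors, and *Ndfip2* (-0.27 ± 0.04), a membrane adaptor of the NEDD4 family, followed. The adaptors *Arrdc2* (-0.23 ± 0.09) and *Ndfip1* (-0.10 ± 0.03) also passed, in the direction opposite to *Nedd4l*. The calls of *Smad7* and *Arrdc2* lay close to the threshold (adjusted P = 0.048 and 0.0445, edgeR). The adaptors *Arrdc3* and *Arrdc4* did not pass. The E2 genes *Ube2d1* (-0.25 ± 0.05) and *Ube2d2a* (-0.11 ± 0.04) passed and were lower too.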

How the data were processed

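The authors deposited 1 file of raw read counts per library, without normalization. Per the processing notes of the submitters the tools were HISAT2 2.1.0 and HTSeq 0.11.2 on GRCm38 (mm10), and per the labels the libraries were made with a stranded mRNA kit. Reads aligned to more than 1 place (10.3% to 13.7%) were not counted, which could lower the counts of regions shared by close paralogs. The 5 summary lines of each file were left out.

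Counts were fitted with edgeR 4.0.16 in R 4.3.3 (TMM, filterByExpr, robust quasi-likelihood F test, no covariate) within each tissue, on the sums per mouse, and over all libraries for region and interaction, with Benjamini-Hochberg adjustment over all genes tested and a threshold of 0.05. Standard errors and 95% intervals came from the F statistic. Log2 CPM for correlations used a prior count of 2. Exon lengths came from GENCODE on GRCm38, which held 47310 of the identifiers. P values test a difference against the spread between libraries, which in the genotype fits is the spread between mice. The region and interaction fits had no term for the mouse, so that both libraries of a mouse counted as separate. The fits were tested on simulated data. A planted log2 change of 0.25 was called in 8.96% of such genes in hippocampus, 14.9% in cortex and 17.9% in the sums. A change of 0.5 was called in 46.3%, 62.7% and 82.1%, so that smaller changes can go uncalled. Changes of 0.25, 0.5 and 1 were planted together, in 67, 67 and 66 genes. The Benjamini-Hochberg adjustment is more lenient when many genes change, and each genotype fit of the data called 1 gene. These shares can thus overstate how often those fits would call a single ligase. The hippocampal 95% intervals covered the planted 0.25 in 88.1%.

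The 2 libraries of a mouse number come from the same animal per the labels. Their deviations from group means correlated at a median of 0.215 (above 0.1 in 9 of 10 mice), against -0.0426 between mice. The 9 ligases and all lists were chosen with earlier results of these data known. Named beyond the 9, *Ube3a* and *Herc2* were, between regions, up to 3 genes of each list with the largest differences in either direction past the threshold, between genotypes the 2 with the smallest P, and the gene most correlated with each ligase. Of these, 1 gene is not reported here. The adaptors *Ndfip1*, *Arrdc2*, *Arrdc3* and *Arrdc4*, the E2 genes named between regions, and any pair of ligases named for its correlation, were chosen after their values were seen. Alternatives were DESeq2 1.42.0, limma 3.58.1 (voom), RLE size factors, no filter, a length and GC correction (splines with 5 degrees of freedom), labelled sex, all 20 libraries, the mouse as a block, the longest transcript, and each mouse left out. The fit without mice 4, 7, 9 and 10 was chosen after seeing the data.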

Additional observations from a re-analysis of the deposited data

Results flagged for a closer look

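No library stood apart for any ligase by Dixon's test at the 95% level: in 36 sets of 5 libraries (9 ligases in 4 groups) there were 0 outliers, where chance gives about 1.8.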

How the results depend on the processing

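Between genotypes 0 of 9 ligases passed under every alternative and with any mouse left out, in hippocampus, cortex, the sums and the interaction. Few of all genes passed in these fits either, at most 7 of 16334 (DESeq2 on the sums), and 0 in the interaction. Signs close to 0 turned. The length and GC correction lowered all genes together, their median going from 0.0023 to -0.028 in hippocampus, from 0.0033 to -0.011 in cortex and from 0.0031 to -0.022 in the sums, so that the turned signs include this common shift. With it the median of the 9 in hippocampus fell to 0.034, and the log2 fold changes were -0.028 for *Ube3c*, -0.034 for *Nedd4l* and -0.072 for *Itch*. In cortex they were -0.039 for *Nedd4l* and -0.023 for *Itch*, and in the sums, where 5 of 9 were above 0, -0.014 for *Ube3b*, -0.034 for *Ube3c*, -0.033 for *Nedd4l* and -0.045 for *Itch*. *Itch* in hippocampus was -0.0089 with limma voom, and *Ube3c* in cortex was 0.00021 without the filter and 0.012 with labelled sex. Sex-linked counts of WT mice 3 and 5 did not match that label, so that the labelled-sex fit may not show an adjustment for sex. Without mice 4, 7, 9 and 10, *Ube3c* was -0.0062 in the sums, and the interaction was 0.026 for *Itch*, -0.035 for *Smurf1* and 0.00011 for *Herc1*. With the replicate block and the correction it was -0.00022 for *Smurf1*.

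With each mouse left out in turn, hippocampal *Ube3c* ranged from -3.3e-05 to 0.091 and *Itch* from -0.060 to 0.079. Cortical *Ube3b* ranged from -0.047 to 0.031, *Ube3c* from -0.024 to 0.014 and *Itch* from -0.043 to 0.087. In the sums *Ube3c* ranged from -0.012 to 0.048 and *Itch* from -0.048 to 0.074. The interaction ranged from -0.016 to 0.068 for *Nedd4l*, -0.060 to 0.018 for *Itch*, -0.0036 to 0.075 for *Smurf1*, -0.035 to 0.058 for *Smurf2*, -0.052 to 0.26 for *Huwe1* and -0.18 to 0.12 for *Herc1*, with the highest *Huwe1* and *Herc1* values without mouse 2.

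Between the tissues the calls moved from 5 of 9 to 3 with limma voom, 3 without the filter, 4 with the replicate block, 6 with the length and GC correction and 1 (*Nedd4l*) without mice 4, 7, 9 and 10, a fit on 6 mice. All genes called moved too, from 7973 of 15661 to 7981 with limma voom, 8737 with the block, 8454 with the correction, 7879 of 28659 without the filter and 5237 of 15926 without the 4 mice. With each mouse left out there were 3 to 4. The median was -0.11 with the correction, alone and with the block. The block changed no other call. *Nedd4l*, *Huwe1* and *Herc1* passed under each alternative on all 20 libraries and with any mouse left out.

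With the longest transcript as the length, the ranks were 2 for *Ube3c*, 3 for *Ube3b*, 5 for *Nedd4l*, 6 for *Huwe1*, 7 for *Herc1* and 8 for *Smurf2*. *Ube3a* then made up 1.55% of HECT transcripts in WT and 3.52% in Ube3aOE hippocampus, and 1.39% and 3.25% in cortex. The 9 ligases had over 400 reads in every library, so that the intervals mostly hold the spread between libraries.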
